A study of Rattus norvegicus with 3 samples.

Results

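Heat shock chaperones, the proteins that keep other proteins folded, were examined together with their transcriptional regulator in the cerebellar cortex of rats after a stroke of the right cerebral hemisphere. The 10 genes were chosen by name, namely the regulator Hsf1, the inducible cytosolic chaperones Hspa1b, Hspb1, Hsph1, Dnajb1 and Hsp90aa1, the constitutive cytosolic chaperones Hspa4 and Hspa8, and the mitochondrial chaperones Hspd1 and Hspe1. A gene counted as measured where a probe that is not a control carried an accession that RefSeq assigns to the symbol of that gene in the rat. This was the case for 8 of the 10 genes, out of 38973 genes on the array, of which 16654 had a symbol. No probe matched Hspa1b or Dnajb1, so 3 of 5 inducible cytosolic members, 2 of 2 constitutive cytosolic members and 2 of 2 mitochondrial members could be compared.

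In cells under heat or other stress, unfolded proteins draw chaperones away from heat shock factor 1, the product of Hsf1, which then assembles on short DNA repeats called heat shock elements and switches on the genes of the inducible chaperones. Constitutive relatives such as Hspa8 fold new proteins in unstressed cells, and a separate pair, Hspd1 and Hspe1, forms the folding chamber inside mitochondria. In the brain, inducible chaperones are textbook markers of ischemic stress.

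Male Wistar rats aged 9 weeks underwent transient right middle cerebral artery occlusion (MCAO) or sham surgery, and tissue was taken 2 days later. The contralateral group was the left cerebellar cortex of the MCAO rats, opposite to the infarct, the ipsilateral group was their right cerebellar cortex, and the control group was the left cerebellar cortex of the sham-operated rats. Tissue of 4 rats was pooled for each group and its RNA hybridised to 1 array per group, and both MCAO pools came from the same 4 rats. The question was how the cerebellar hemisphere opposite to a cerebral infarct differs from the other hemisphere and from controls. With 1 array per group there was no replicate and no test, each difference is one between pools, and the number of arrays limits the precision.

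The 75th percentile of the fluorescence signal was 2103 in the contralateral pool, 1614 in the ipsilateral pool and 2336 in the control pool, and all signals below are scaled to a common 75th percentile of 1994. A log2 ratio of 1, a doubling, was the threshold for a change, as in the methods of the study. All 8 measured members were well above background on all 3 arrays, and no spot was saturated. The error that the scanner software gives for a spot came to a mean of 0.20 on the log2 scale for the ratio of a member. It was averaged over spots without being reduced for their number. Over the members it was nearly constant, from 0.204 to 0.206. This single-spot error covers neither differences between rats nor those between hybridisations.

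None of the 8 members passed the threshold in any comparison. Of the 22085 genes that every array measured well above background, 1.41% had a contralateral to control ratio above 1 and 0.851% had one below -1. For the ipsilateral to control ratio these shares were 3.1% and 0.797%, and for the contralateral to ipsilateral ratio 0.217% and 1.54%. With shares this low, the absence of calls among 8 genes is not a result about the members. The median log2 ratio of the 8 members was 0.0043 for the contralateral and 0.0086 for the ipsilateral cortex, beside 0.01 and 0.03 over all these genes. Below the threshold, the members were uneven. The small chaperone Hspb1 lay far above the rest on both sides, Hspa8 lay above 0 with all its probes, and the regulator and the mitochondrial chaperones lay close to 0.

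**Figure D1:**
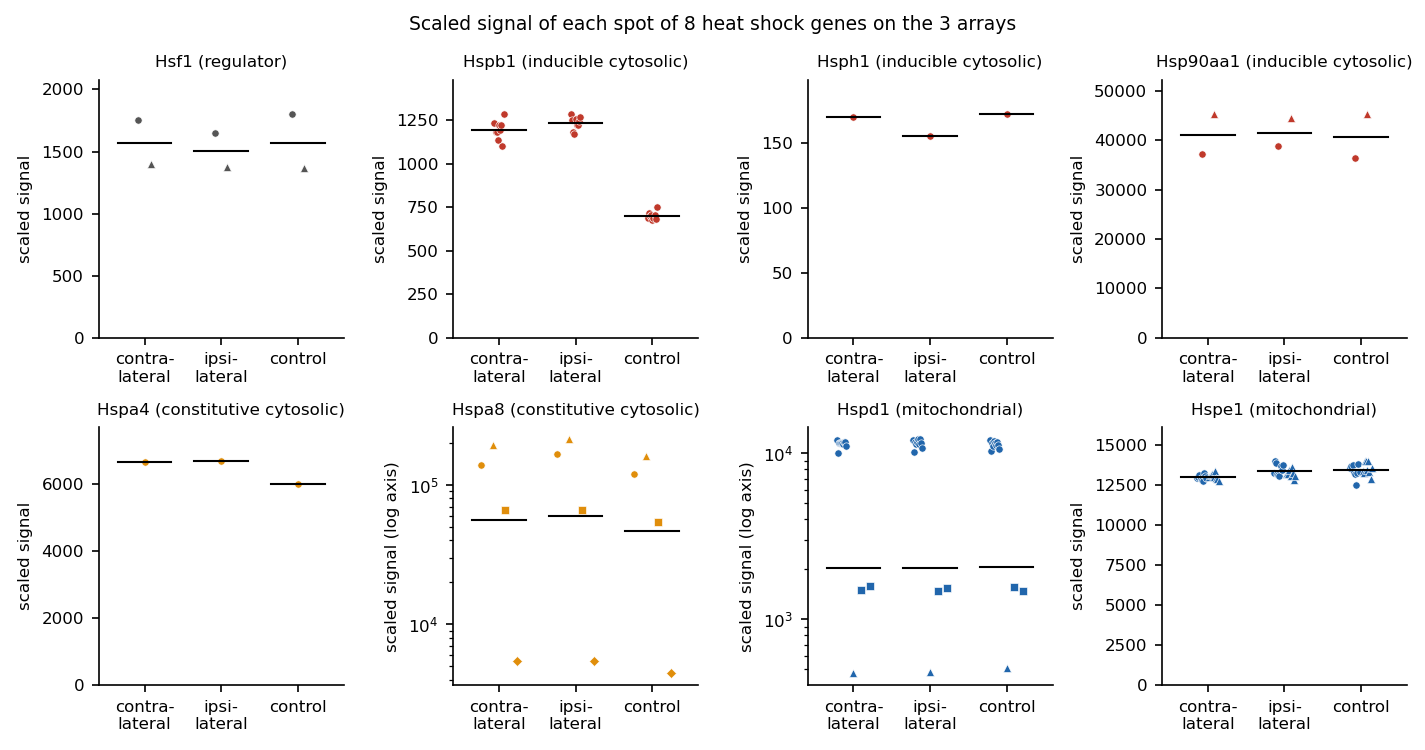
Scaled fluorescence signal (arbitrary units, y axis, logarithmic where labelled) of each spot of 8 heat shock genes for the contralateral, ipsilateral and control pools (x axis). Each point is a spot, marker shapes are different probes, and the bar is the value of the gene after averaging spots and then probes on the log scale. Only Hspb1, Hspd1 and Hspe1 had repeated spots of a probe. Among these, the spots of Hspb1 lie apart from control, with 1104 to 1286 and 1169 to 1288 on the MCAO arrays and 674 to 750 on the control array.

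Hsf1, which encodes the factor that activates the inducible chaperone genes, had a scaled signal of 1567 in the contralateral pool, 1505 in the ipsilateral pool and 1570 in the control pool. The log2 ratio to control was -0.0028 for the contralateral and -0.06 for the ipsilateral cortex, both within the scanner error. Its 2 probes lay on either side of 0, at -0.04 and 0.04 contralaterally and at -0.13 and 0.0086 ipsilaterally. Heat shock factor 1 is regulated largely at the level of the protein, which these arrays do not measure.

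Promoters of the members were searched for the letters of the heat shock element, in RefSeq windows of the GRCr8 assembly that run from 250 bases before to 50 bases after the start of the gene. Such windows were found for 7 of the 10 members, namely Hspb1, Hsph1, Dnajb1, Hspa4, Hspa8, Hspd1 and Hspe1. The letters were a pair of opposed units, GAANNTTC or TTCNNGAA, each of which reads the same on both strands, and a row of 3 alternating units, GAANNTTCNNGAA or TTCNNGAANNTTC, which holds an overlapping copy of both pairs. A pair was present in 15.9% of all 33469 promoters and in 6 of the 7 member promoters, all but that of Hspa4. A row of 3 units was present in 0.798% of all promoters and in 4 of the 7, those of Hsph1, Hspa8, Hspd1 and Hspe1. Among 84 promoters of other chaperone genes described further on, 18 held a pair and 3 held a row of 3 units. Hspa1a, counted among these and treated further on as the nearest measured gene to Hspa1b, held neither. A match is a description of the letters, not a site or a cause.

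**Figure D2:**
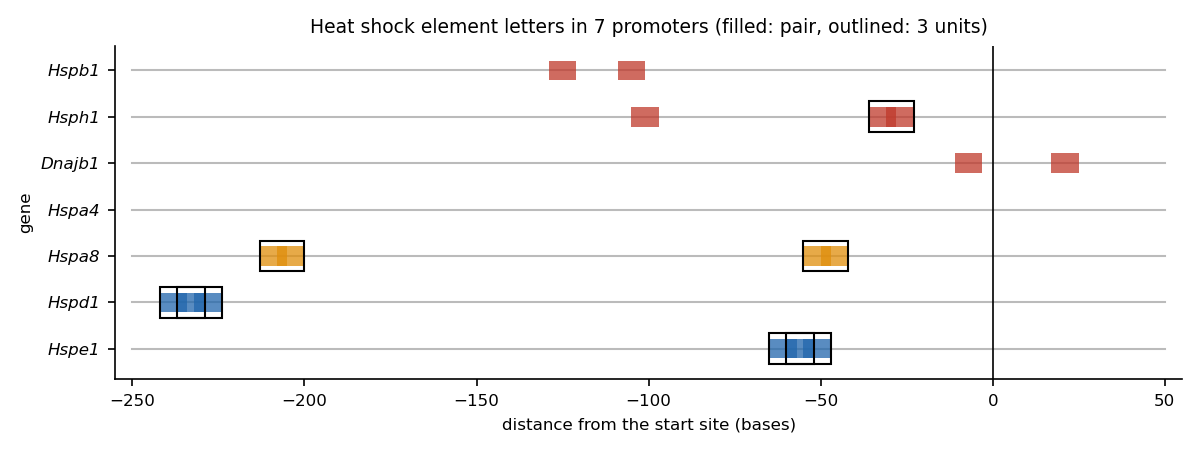
Position of heat shock element letters in the promoters of 7 members, as distance from the start site in bases (x axis), 1 line per gene (y axis). Filled boxes are pairs of opposed units and outlined boxes are rows of 3 alternating units. Hspa8 held 2 rows of 3 units, Hspb1 held 2 separate pairs and no such row, and Hspa4 held neither.

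Hspb1 encodes a small heat shock protein that binds unfolded proteins without using ATP and also acts on actin filaments. In the rodent cerebellum the protein is known from stripes of Purkinje cells. Its signal was 1195 in the contralateral pool, 1233 in the ipsilateral pool and 701 in the control pool. Both MCAO arrays were therefore high and the control array was low. The 9 spots of its single probe ranged from 1104 to 1286 on the contralateral array, from 1169 to 1288 on the ipsilateral array and from 674 to 750 on the control array. The spots of either MCAO array did not overlap with those of the control array, and those of the MCAO arrays overlapped with each other. Such separation follows from a ratio that is large against the spread of spots. How common it is among all probes with repeated spots is not given here. Spots of 1 probe on 1 array are repeats of the same RNA, not of the condition.

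The log2 ratio of Hspb1 to control was 0.77 on the contralateral side, a 1.70-fold difference, with an SD of 0.06 between the 9 spots and a range from 0.69 to 0.86. On the ipsilateral side it was 0.81, or 1.76-fold, with an SD of 0.06 and a range from 0.73 to 0.91. The contralateral to ipsilateral ratio was -0.05 with an SD of 0.06. Thus both differences from control were above the single-spot scanner error of 0.20 and the difference between sides was below it. A ratio at least this high was found for 2.49% of all genes well above background on the contralateral side and for 4.84% on the ipsilateral side. Both ratios share the control array, so an error in that array enters both alike. Without scaling between arrays, the ipsilateral ratio was 0.28, where all genes shifted by -0.53. Once the median of all genes was subtracted it was 0.78, by construction the same as in the scaled data. In bulk tissue, a different number of cells of a type and a different amount of RNA per cell cannot be told apart.

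The promoter of Hspb1 is shown because this member had the largest ratios. The 250 bases before the start, on the minus strand at chr12:26432302-26432551 (GRCr8, RefSeq), are given with capitals for the pairs of opposed units, at -129 to -122 and at -109 to -102 from the start.
Hspb1: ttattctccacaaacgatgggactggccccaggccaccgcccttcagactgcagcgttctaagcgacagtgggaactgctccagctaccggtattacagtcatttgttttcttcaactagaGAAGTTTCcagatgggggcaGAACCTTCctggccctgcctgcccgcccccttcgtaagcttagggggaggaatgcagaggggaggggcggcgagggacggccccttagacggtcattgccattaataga

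Hsph1 and Hsp90aa1, the other measured inducible members, lay close to 0 or below it. Hsph1 encodes an HSP110 protein that exchanges nucleotides on HSP70. Its only spot had a signal of 170 in the contralateral, 155 in the ipsilateral and 173 in the control pool. The log2 ratios to control were -0.02 and -0.15, and the contralateral to ipsilateral ratio was 0.13, all within the scanner error. Hsp90aa1, the inducible cytosolic HSP90, had signals of 40987, 41489 and 40665 in the same order of arrays. Its 2 probes lay on either side of 0 in both comparisons with control, and the log2 ratios to control were 0.01 contralaterally and 0.03 ipsilaterally. The promoter of Hsph1 held 3 pairs and 1 row of 3 units, at -36 to -24 from the start, and that of Hspb1 held no such row. A relation of these letters to the ratios was not tested.

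For comparison with Hspb1, the promoter of Hsph1 is shown for the 250 bases before the start on the plus strand at chr12:10427118-10427367 (GRCr8, RefSeq), again with capitals for the pairs of opposed units.
Hsph1: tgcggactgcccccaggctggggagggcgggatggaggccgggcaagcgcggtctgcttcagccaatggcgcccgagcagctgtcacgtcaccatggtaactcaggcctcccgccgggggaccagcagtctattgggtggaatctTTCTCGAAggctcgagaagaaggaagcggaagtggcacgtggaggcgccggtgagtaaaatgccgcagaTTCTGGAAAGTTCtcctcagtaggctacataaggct

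For Hspa1b, the inducible HSP70 of most cells, the nearest measured gene was Hspa1a. RefSeq gives Hspa1b as another name of Hspa1a in the rat, and the 2 copies are nearly identical, so the value is uncertain as to the copy. The signal of Hspa1a over its 2 probes was 139 in the contralateral, 159 in the ipsilateral and 123 in the control pool, which puts both MCAO arrays above the control array. The log2 ratios to control were 0.18 and 0.37, with a scanner error of 0.23 for each, so the contralateral ratio lay within that error. The probes differed, with 0.25 and 0.23 for a probe that read 470 in the control pool and 0.10 and 0.51 for a probe that read 32.4 there.

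The constitutive cytosolic members lay above 0 on both sides. Hspa8, the HSP70 present in all unstressed cells, which also strips clathrin from synaptic vesicles, had a signal of 55620 in the contralateral pool, 60147 in the ipsilateral pool and 46351 in the control pool. All 4 probes were higher on both MCAO arrays than on the control array. Their ratios to control ranged from 0.21 to 0.29 on the contralateral side, with a gene value of 0.26 or 1.20-fold, and from 0.30 to 0.50 on the ipsilateral side, with a gene value of 0.38 or 1.30-fold. For 2 of the probes the ipsilateral pool was higher than the contralateral pool, with contralateral to ipsilateral ratios of -0.28 and -0.15, and for the others the pools were near equal at -0.0063 and -0.01.

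These differences of Hspa8 were modest against the array as a whole, since 12.6% and 13.5% of all genes had ratios at least as high. The ipsilateral ratio was 0.13 after quantile normalization and -0.16 without scaling. Relative to the median of all genes, Hspa8 stayed above 0 under all 10 alternatives, at 0.09 to 0.25 contralaterally and 0.13 to 0.38 ipsilaterally. Hspa4, an HSP110 relative that serves HSP70 as nucleotide exchange factor, had a single spot with signals of 6646, 6678 and 6004 for the contralateral, ipsilateral and control pools. Both MCAO arrays were higher than the control array by log2 ratios of 0.15, within the scanner error. Without scaling the ratios were -0.0054 contralaterally and -0.38 ipsilaterally, and with spike-in scaling 0.07 and -0.10, settings that shift all genes alike. Relative to the median of all genes, Hspa4 ranged from 0.04 to 0.13 contralaterally under the 10 alternatives. Ipsilaterally it ranged from -0.04, with normexp background correction, to 0.12.

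The promoter of Hspa8 is shown because it held 2 rows of 3 units, at -213 to -201 and at -55 to -43, while Hspa4 held no match in its window. The 250 bases before its start lie on the plus strand at chr8:50080264-50080513 (GRCr8, RefSeq), and capitals mark the overlapping pairs that make up each row.
Hspa8: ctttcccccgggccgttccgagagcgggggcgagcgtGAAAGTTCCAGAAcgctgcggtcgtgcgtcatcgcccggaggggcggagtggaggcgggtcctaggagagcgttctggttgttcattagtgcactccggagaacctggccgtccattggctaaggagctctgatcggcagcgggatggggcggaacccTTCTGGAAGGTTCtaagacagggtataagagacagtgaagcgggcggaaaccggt

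The mitochondrial members lay close to 0. Hspd1, which encodes the barrel of the mitochondrial folding chamber (HSP60), had signals of 2018, 2023 and 2052 for the contralateral, ipsilateral and control pools over 3 probes and 13 spots. Hspe1, which encodes its lid (HSP10), had signals of 13006, 13349 and 13458 over 2 probes and 18 spots. Within each of the 4 probes that had several spots, the spots of either MCAO array overlapped with those of the control array. The log2 ratios to control of Hspd1 were -0.02 on both sides, with SDs between spots of 0.06 and 0.05. For Hspe1 they were -0.05 and -0.01, with SDs of 0.04 for each. All were within the scanner error.

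Hspd1 and Hspe1 lie head to head on opposite strands, their start sites 290 bases apart in the promoter table, and the windows overlap by 211 bases. The start of Hspd1 in this table lies inside the annotated gene, so these distances depend on the transcript chosen. The heat shock element letters of both promoters are therefore the same bases, an unbroken run of 18 bases with 2 overlapping rows of 3 units, which lies at -65 to -48 from the start of Hspe1. This was the longest unbroken run among the member promoters, and a relation of these letters to the ratios was not tested. It is shown with the neighbouring bases on the strand of Hspe1 (plus), at chr9:64084256-64084285 (GRCr8, RefSeq).
Hspd1 and Hspe1: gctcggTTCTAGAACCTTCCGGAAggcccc

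**Figure D3:**
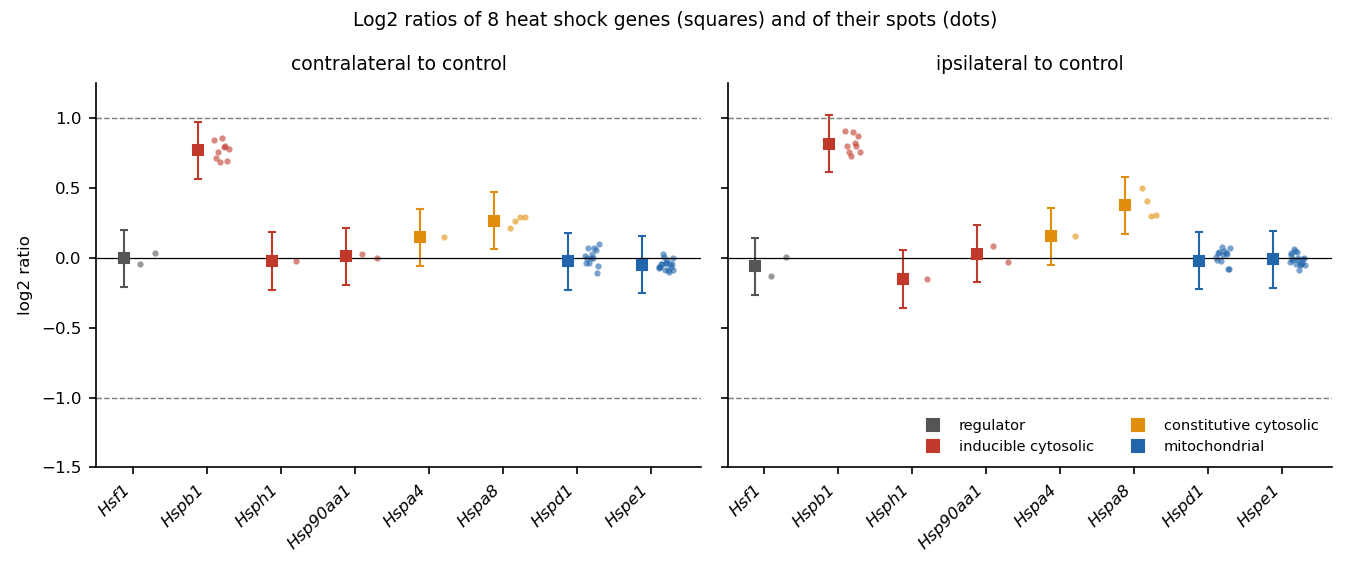
Log2 ratio to control (y axis) of 8 heat shock genes (x axis) for the contralateral (left) and ipsilateral (right) cerebellar cortex. Squares are gene values with the single-spot scanner error as bars, dots are single spots, colours are roles, and dashed lines mark the threshold of 1 and -1. Hspb1 stands at 0.77 and 0.81 and Hspd1 at -0.02 on both sides.

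Inducible cytosolic and mitochondrial chaperones were compared by their medians. The median log2 ratio was 0.01 for the 3 inducible and -0.04 for the 2 mitochondrial members on the contralateral side, a difference of 0.05. On the ipsilateral side the medians were 0.03 and -0.02, again 0.05 apart, and between the sides the difference was 0.0028. The inducible median was the value of Hsp90aa1, so the size of the ratio of Hspb1 did not enter it. With Hspa1a added to the inducible group, an alternative chosen after seeing the data, the differences were 0.13 contralaterally and 0.22 ipsilaterally. The scanner error of 0.20 is that of a spot ratio of a single member and not of such a difference. With means in place of medians, likewise chosen afterwards, the differences were 0.29 and 0.25. Without Hspb1 the differences of the means were 0.03 contralaterally and -0.05 ipsilaterally. The difference of the medians on the ipsilateral side also turned to -0.08 after quantile normalization and to -0.05 with the brightest probe of each gene only. The difference between the groups thus varied with the summary and with the genes counted as inducible.

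**Figure D4:**
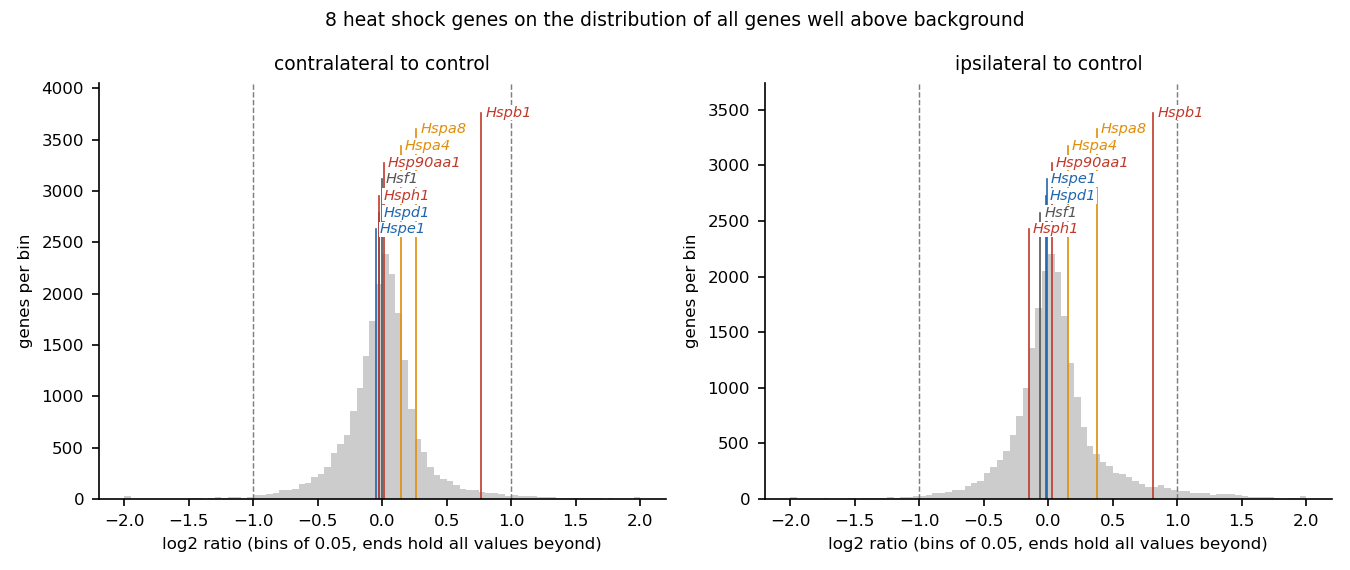
Number of genes per bin (y axis) by log2 ratio to control (x axis) for 22085 genes measured well above background on every array (grey), for the contralateral (left) and ipsilateral (right) side. Coloured lines mark the 8 heat shock genes and dashed lines the threshold. Most members lie in the centre of the distribution, and Hspb1 lies in the upper tail with 2.49% and 4.84% of genes at least as high.

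Between the sides of the MCAO group, the members ranged from -0.11 for Hspa8 to 0.13 for Hsph1 in the contralateral to ipsilateral log2 ratio. All 8 values were within the scanner error. Without scaling, all genes shifted by 0.38 in this comparison, and the members ranged from 0.27 to 0.51.

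The wider chaperone network was described with 102 companion genes in 9 lists, of which 93 had a probe and 90 were well above background on all 3 arrays. None of the 90 passed the threshold on either side, where 1.41% and 3.1% of all genes well above background lay above it and 0.851% and 0.797% below -1, so this is not a result about these genes. Their median log2 ratio was 0.03 on both sides. Set against the median of all genes it turned from 0.02 and 0.0027 to -0.0056 and -0.07 with normexp background correction, which included an offset of 50, and to -0.0027 and -0.07 with 50 added to the signal. On the contralateral side 56 lay above 0 and 34 below, and on the ipsilateral side 55 and 35, beside 52.4% and 55.9% above 0 among all genes well above background.

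The other heat shock factors and their binding proteins had medians of 0.0023 and 0.0056 over 3 genes. Hsf4, best known from the lens, was highest at 0.39 and 0.28, and Hsf2 was lowest at -0.04 and -0.03. The list of HSP70 and HSP110 relatives, mainly cytosolic, had medians of 0.09 and 0.08 over 6 genes, led by Hspa1a at 0.18 on the contralateral side and by Hspa2 at 0.40 on the ipsilateral side, with Hspa13, whose product is found in microsomes, lowest at 0.02 and -0.04. HSP90 and its co-chaperones had medians of 0.09 and 0.07 over 14 genes, of which 11 were above 0 on each side. Here Fkbp5, a co-chaperone of the glucocorticoid receptor that glucocorticoids induce, was highest with signals of 1214, 1187 and 882 for the contralateral, ipsilateral and control pools. Its log2 ratios were 0.46 and 0.43, and Fkbp4, its counterpart on the same receptor, was lowest at -0.15 and -0.14.

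Among the other small heat shock proteins, the relatives of Hspb1, the medians were 0.14 and 0.10 over 7 genes. Cryaa was highest at 0.53 and 0.98, at signals of only 21.0, 28.8 and 14.6 for the contralateral, ipsilateral and control pools. Hspb3 was lowest on the contralateral side at -0.08 and Hspb2 on the ipsilateral side at 0.02. Of the 7 genes, 4 lay above 0 and 3 below contralaterally, and all 7 lay above 0 ipsilaterally. Other genes of the list were dim as well, with control signals of 31.8 for Hspb9, 77.6 for Hspb8 and 98.6 for Hspb3. Relative to all genes, the median of the list stayed above 0 under all 10 alternatives, at 0.08 to 0.14 and 0.07 to 0.12. These include the alternatives that could not change such values.

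The HSP70 partners lay near 0. Cytosolic DNAJ proteins, which deliver clients to HSP70, had medians of 0.03 on both sides over 11 genes, with Dnajc12 highest at 0.32 and 0.22, Dnaja4 lowest contralaterally at -0.03 and Dnajb2 lowest ipsilaterally at -0.13. BAG proteins and other partners had medians of 0.04 and 0.0058 over 10 genes, with Bag5 at 0.22 and 0.17 and Bag4 at -0.19 and -0.16 as the extremes. The TRiC folding chamber of the cytosol and its helper prefoldin had medians of 0.08 and 0.05 over 12 genes, with Cct5 highest on the contralateral side at 0.19, Cct8 on the ipsilateral side at 0.23, and Pfdn1 lowest at -0.04 and -0.07. Relative to all genes, the ipsilateral medians of TRiC, HSP90 and HSP70 turned to -0.06, -0.06 and -0.07 with normexp, and all were -0.05 with 50 added to the signal. The contralateral median of the BAG list turned to -0.0032 with 50 added to the signal and likewise after quantile normalization, which also turned the ipsilateral median of the cytosolic DNAJ list relative to all genes from -0.0033 to 0.04. The ipsilateral median of the BAG list on this scale was -0.02. It was -0.05 to -0.0092 under all 10 alternatives, including those that could not change such values.

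The organelle chaperones had medians near 0 as well, slightly below it, with genes on both sides. Mitochondrial chaperones and proteases had medians of -0.04 and -0.05, with 10 of 14 genes below 0 on each side. Afg3l2 was highest contralaterally at 0.14 and Trap1 ipsilaterally at 0.08, Timm44 was lowest contralaterally at -0.73 with a signal of 13.2 against 21.9 in control, and Hscb was lowest ipsilaterally at -0.24. Endoplasmic reticulum chaperones had medians of -0.08 on both sides, with 10 of 13 genes below 0 contralaterally and 8 of 13 ipsilaterally. Hsp90b1, the HSP90 of that compartment, was lowest with signals of 1809, 1703 and 2117 for the contralateral, ipsilateral and control pools and log2 ratios of -0.23 and -0.31. Dnajb9 was highest contralaterally at 0.40, and Pdia4 ipsilaterally at 0.07. Relative to all genes, both organelle lists stayed below 0 under all 10 alternatives, including those that could not change such values. The mitochondrial list lay at -0.11 to -0.06 and -0.11 to -0.05, and the endoplasmic reticulum list at -0.12 to -0.10 and -0.19 to -0.11.

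**Figure D5:**
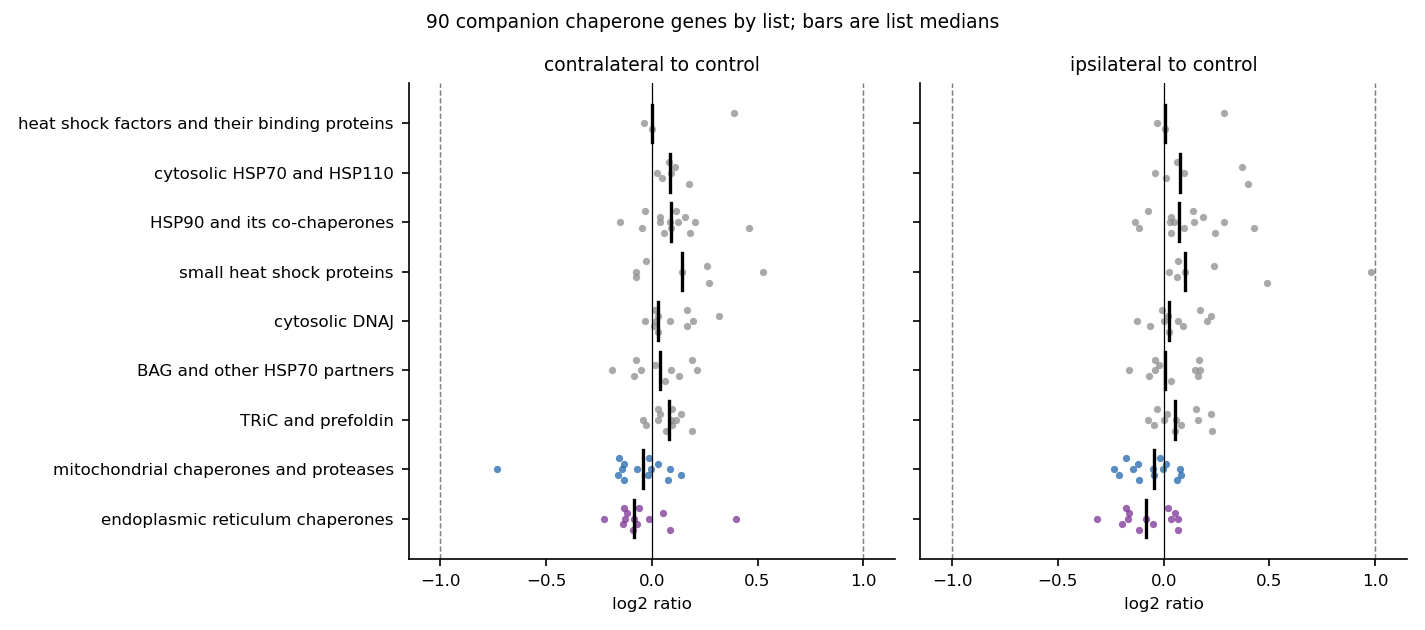
Log2 ratio to control (x axis) of 90 companion chaperone genes in 9 lists (y axis) for the contralateral (left) and ipsilateral (right) side, with each dot a gene and each bar the median of a list. Dashed lines mark the threshold, which no gene passed, and the lists of mitochondria (blue) and the endoplasmic reticulum (purple) have medians below 0.

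Genes with ratios like those of single members were sought among 11249 other named genes, by the Euclidean distance over both log2 ratios to control, which share the control array. For Hsph1 the nearest were Zfp865, Edem2 and Nup210, and 1174 genes lay within a distance of 0.1. For Hspd1 they were Snrpe, Blvra and Tgfbrap1, with 2513 genes within that distance. Hspb1 was added after its values were seen. Only 17 genes lay within that distance of it, the nearest being Nfkbia at 0.77 and 0.82, Nqo1 at 0.74 and 0.80 and Slc25a25 at 0.75 and 0.78.

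The 5 widely used reference genes were read beside the members, with log2 ratios to control of -0.18 and -0.17 for Actb, -0.12 and -0.06 for Gapdh, 0.02 and 0.06 for Hprt1, -0.07 and 0.06 for Tbp, and -0.08 and -0.0023 for Ywhaz. Hspb1 lay well outside this range on both sides, Hspa8 lay above it, and the mitochondrial members lay within it.

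Markers of the cell types that the tissue could hold were measured beside the chaperones. The cerebellar label was checked with granule cell markers (8 of 8 well above background, with Cbln1 the most abundant at 41383, 41873 and 44298 for the contralateral, ipsilateral and control pools) and Purkinje cell markers (7 of 7, with Itpr1 the most abundant). Summed signals of the granule cell list were 108308, 109249 and 126530 in that order of arrays, with median log2 ratios of -0.08 on both sides and 3 of 8 genes above 0 on each. Those were Zic2 at 0.45 and 0.28, Etv1 at 0.27 and 0.15 and Gabra6 at 0.15 and 0.23, named after their values were seen. Grm4, likewise named afterwards, was lowest at -0.87 and -0.76, and without it the sums were 86804, 85956 and 87203. Those of the Purkinje cell list were 216312, 215246 and 196617, with medians of 0.14 and 0.09 and 5 of 7 genes above 0 on each side. The ipsilateral Purkinje cell median relative to all genes was -0.05 with normexp and -0.03 with 50 added to the signal. Molecular layer interneuron markers (4 of 4, Gad1 the most abundant) summed to 2889, 2900 and 2830, with medians of 0.07 on both sides. Without Gad1 the sums were 1121, 1091 and 1137, with control the highest, and Prkcd, named after its values were seen, was lowest at -0.27 and -0.26.

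The astrocyte and vascular lists were mixed. Bergmann glia and astrocyte markers (8 of 8) summed to 76553, 77135 and 84722, with medians of -0.04 on both sides and 4 of 8 genes above 0 contralaterally. Aqp4, with the highest mean log2 signal of the list, had ratios of -0.55 and -0.45, and without it the sums were 49937, 48555 and 45696. Of the others, all named after their values were seen, Gdf10 was highest at 0.39 and 0.27, Gfap was lowest at -0.73 and -0.66, and S100b had 0.17 and 0.12. Endothelial markers (6 of 6, Slc2a1 the most abundant at 0.39 and 0.51) summed to 12010, 12663 and 11561, with medians of -0.22 and -0.12 and 4 of 6 genes below 0 on each side. Without Slc2a1 the sums were 4449, 4443 and 5784, with control the highest. Kdr at -0.66 and -0.77 and Tek at -0.35 and -0.34, also named afterwards, were the lowest. Relative to all genes, the medians of these 2 lists were below 0 on both sides under all 10 alternatives, with 1 exception. That of the astrocyte list was 0.04 contralaterally with the brightest probe only. The alternatives include those that could not change such values. Of the oligodendrocyte genes, Mbp had 0.04 and 0.11, Mobp 0.28 and 0.24, Mog -0.27 and -0.28, Mag -0.16 and -0.20, and Cnp -0.47 and -0.48, so these went both ways. The part of the neuronal, glial and vascular cells in the ratios of Hspb1 was not tested.

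Immune markers were mixed. Microglia and macrophage markers (7 of 7) summed to 4698, 5896 and 3919, with medians of 0.18 and 0.08, and 3 of 7 genes lay below 0 contralaterally and 2 ipsilaterally. Their most abundant gene, Cx3cr1, had log2 ratios of 0.78 and 1.27, and it passed the threshold ipsilaterally. Without it the sums were 2353, 2585 and 2549, with the contralateral sum below control. The other 6, named after their values were seen, went both ways. Tmem119 had 0.28 and 0.08, Itgam 0.21 and 0.54, Cd68 0.18 and 0.56, P2ry12 -0.01 and -0.04, Csf1r -0.05 and 0.08, and Aif1 -0.29 and -0.10. Neutrophil markers summed to 92.6, 104 and 72.4 over all 4 genes, and the 2 well above background had medians of 0.37 and 0.42, from S100a9 at 0.58 and 1.04 and S100a8 at 0.16 and -0.19. Mmp8 and Ngp were not well above background. The part of these cells in the ratios of Hspb1 was not tested.

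Markers of tissue that borders the cortex differed widely between the arrays. Choroid plexus markers summed to 10205, 76009 and 33435 over all 6 genes, and the 5 well above background, all but Kl, had medians of -0.68 and 0.66. Their most abundant gene, Ttr, fell by 1.73 on the contralateral side and rose by 1.19 on the ipsilateral side, and the contralateral to ipsilateral ratio was -2.93. Between the same arrays the ratio of Hspb1 was -0.05. Without Ttr the choroid plexus sums were 295, 680 and 474. Of the 5 choroid plexus genes well above background, all lay below 0 contralaterally and 4 lay above 0 ipsilaterally. Clic6, named after its values were seen, was below 0 on both sides, at -0.55 and -0.31. Leptomeningeal markers (5 of 5, Col1a2 the most abundant) summed to 5747, 8018 and 10414, with medians of -0.85 and -0.37 with Col1a1 at -1.26 on the contralateral side and Dcn, named after its values were seen, at -0.03 and 0.23. Of the erythroid markers only Hba-a2 was well above background, at -0.85 and -0.82, and all 3 genes of the list summed to 69.0, 64.2 and 136. The sign of these medians relative to all genes held under all 10 alternatives, including those that could not change such values. The part of these tissues in the ratios of the members was not tested.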

How the data were processed

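Per the labels, tissue of 4 rats per group was pooled, and its Cy3-labelled RNA was hybridised to 1-colour arrays. The authors deposited the spot intensity that Agilent Feature Extraction 12.1.0.3 gives after background subtraction and spatial detrending, without scaling between arrays. A deposited table holds the same intensity multiplied by 1.12 (contralateral), 1.45 (ipsilateral) and 1.04 (control), and the step that gave these factors is not given in the sources used here. The methods name a normalization to control samples, without its procedure. All 3 arrays were on 1 slide, read in 1 scan.

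Log2 intensity of the 58717 non-control spots was shifted to a common 75th percentile, and 759 outlier spots were left out. Spots were averaged per probe and probes per gene. RefSeq (GRCr8) gave a symbol to 17622 of the 39957 accessions. Genes called well above background had every probe so on each of the 3 arrays. Members and lists were chosen with earlier results of these data known. Named genes were all members, the highest and lowest gene of each companion list, the most abundant gene of each marker list, markers past the threshold, reference genes and nearest neighbours. Neighbours of Hspb1 were added after its values were seen, and those of Hspa1b could not be sought. Probe sequences were not used here, so binding of related transcripts to a probe was not checked. Protein sequences were not analysed here. The oligodendrocyte list as a whole is not reported here.

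The processing was varied in 10 ways. Scaling was left out, set to the median, set to 8 spike-in probes, or replaced by quantile normalization. The signal was replaced by normexp values, which changed the input (median signals), the background correction and the offset (50) together, by the deposited table, or by the signal plus 50. Dim probes were dropped, the brightest probe was taken alone, or outlier spots were retained. The software was R 4.3.3 with limma 3.58.1, and Python 3.11.15 with numpy 2.4.6, pandas 2.3.3 and matplotlib 3.10.9.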

Additional observations from a re-analysis of the deposited data

How the results depend on the processing

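No member passed a log2 ratio of 1 in any comparison under the main setting or any of 10 alternatives. The contralateral ratio of Hspb1 ranged from 0.62 to 0.80 over these, and Hspb1 was the highest member under all 10 in both comparisons with control. Its ipsilateral ratio was 0.28 without scaling and 0.56 with spike-in scaling, against 0.76 to 0.83 under the others, and its contralateral to ipsilateral ratio was 0.34 without scaling. By construction these settings shift all genes, ipsilaterally by -0.53 and -0.25, contralaterally by -0.15 and -0.08, and between sides by 0.38 and 0.17. Relative to all genes, Hspb1 ranged from 0.68 to 0.76 contralaterally and from 0.64 to 0.82 ipsilaterally. Alternatives that shift whole arrays or drop dim probes could not change these values. The difference between inducible and mitochondrial members on the contralateral side was 0.29 with means in place of medians, an alternative added after seeing the data, and 0.03 once Hspb1 was also left out. With Hspa1a added to the inducible group, also chosen after seeing the data, it was 0.13, and 0.22 on the ipsilateral side. The ipsilateral difference of these groups kept its sign under 11 of 14 alternatives. Ratios of dim genes such as Cryaa and Timm44 are limited by their signal over background. No paired analysis was possible because each group had 1 array.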
